A study of Schizosaccharomyces japonicus with 6 samples.

Results

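A set of 112 nearly silent genes outside retrotransposons was examined, out of 5152 loci in the RNA-seq table of the fission yeast Schizosaccharomyces japonicus. The members were chosen by their average level in that table. They are the loci whose names do not begin with Tj, the prefix of the annotated retrotransposon families, and whose average log2 CPM (logCPM, where CPM is the read count scaled to library size) was under 0. Of the 118 loci that meet these terms, 6 were left out because they overlap Tj elements, among 7 genes that the rule names for this reason. The remaining genes served for comparison, as 165 genes at a logCPM of 0 to 2 and 4602 genes at 2 and over.

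The libraries came from 2 strains grown in rich medium at 32 °C, with 3 libraries of each. The dcr1Δ* strain carries dcr1-dis::natMX6, a disruption of the sole Dicer gene, together with mpe1-R77W, a missense allele of a gene for a cleavage and polyadenylation factor. It is a rare survivor recovered from many attempts, so any difference it shows belongs to that isolate with all its changes. Wild-type cells have neither allele, and both strains are h- and share mat-P2028, ura4-D3 and ade6(sj)-domE. Libraries were made from polyadenylated RNA with a stranded kit. The deposited table holds 1 averaged level for each locus over all 6 libraries and no value for any library, so neither a spread between replicates nor a level in each strain can be given here, and whether the members differ between dcr1Δ* and wild-type cells was not tested. The members are therefore described by their average level, their gene models and their position. Length is described as well, but it is not independent of the choice, because CPM is not divided by length. Differences between the classes of genes are given as counts and medians with no test, since genes are not replicates.

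In a growing yeast culture most protein-coding genes are transcribed, and the exceptions tend to be genes used only in particular states such as mating, meiosis or starvation. In the related fission yeast Schizosaccharomyces pombe, genes of this kind are kept low by sequence-specific repressors, by removal of their transcripts and by heterochromatin, the compact chromatin that also covers telomeres and centromeres. Genes next to the telomeres of S. pombe are known to be poorly expressed in rich medium and to respond to nitrogen starvation. The deposited table and the table of RefSeq genes used here pair the members with locus tags only, so the function of individual members is not stated and nothing below assigns one.

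The members had a median logCPM of −1.34, with the middle part of the distribution between −2.30 and −0.50. This corresponds to a median level of 0.394 CPM, against 2.23 CPM for the genes at logCPM 0 to 2 and 71.2 CPM for the genes at logCPM 2 and over. All 112 members together summed to 50.9 CPM, which is 0.00508% of the CPM summed over all loci. These sums include the small prior count that the averages hold, so they are not shares of reads alone. The genes at logCPM 0 to 2 made up 0.0387%. Members form 2.29% of the 4886 loci not named Tj, in the long lower tail of a distribution whose main body lies around a logCPM of 6.

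**Figure D1:**
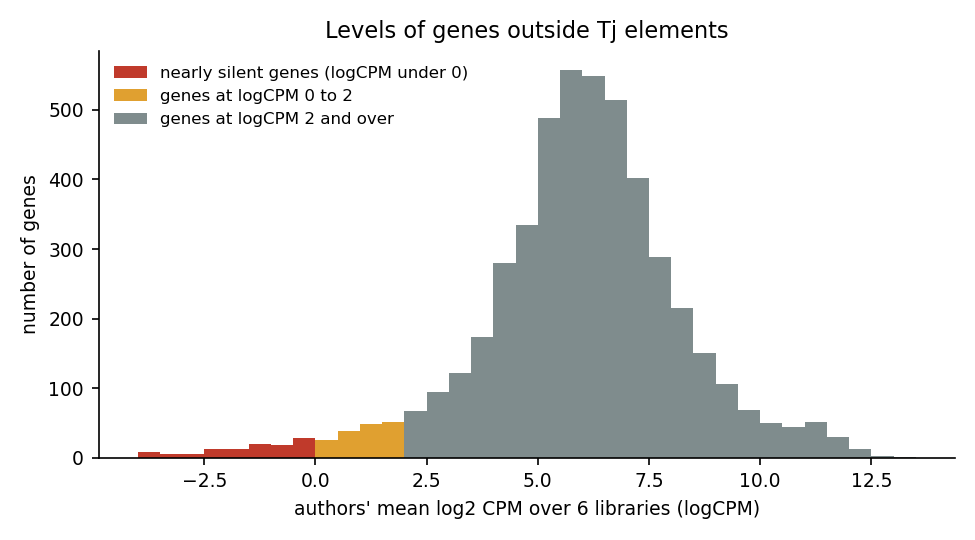
Number of genes outside Tj elements (vertical axis) by the authors' mean log2 CPM over 6 libraries (horizontal axis, bins of 0.5). The 112 nearly silent genes (red) continue the lower tail of the 165 genes at logCPM 0 to 2 (orange), with no gap between them, far below the bulk of the 4602 other genes (grey).

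Most members were not without reads. The lowest value in the table, −3.99 or 0.0628 CPM, was shared by 15 loci and stands for no counted read, since the averages hold a small prior count. Only 2 members were at this value, the protein-coding gene SJAG_00016 and the locus EFSJAG00000000324. If the prior count was 2, an assumption, the average library held about 31800000 counts and a logCPM of 0 corresponds to 29.8 reads in each library. On that scale the median member had 10.5 reads per library, 59 members had 10 or more, and 21 had fewer than 3. The term nearly silent thus covers genes with up to 29.5 reads per library as well as genes with none. Because the members were chosen by this level, these values are a description and carry no test.

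The 5 lowest members by logCPM were those without reads, at −3.99, followed by SJAG_05352 at −3.93, SJAG_06643 at −3.88 and SJAG_05106 at −3.86. The last 3 of these lie on contigs shorter than the main ones, and each had under 1 read per library on the scale above. At the other end, the members just inside the limit were SJAG_00021 at −0.02, SJAG_05201 at −0.04, SJAG_01095 at −0.06, SJAG_06596 at −0.11 and SJAG_02736 at −0.13. The genes just outside it were SJAG_03751 at 0.01, SJAG_02735 at 0.01 and SJAG_06111 at 0.03. The limit of 0 therefore does not mark a break, and it separates neighbours: SJAG_02735 and SJAG_02736 lie side by side on the first long contig with almost the same level.

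Of the members, 111 were found in the RefSeq annotation of the SJ5 assembly, all as protein-coding genes. EFSJAG00000000324 was not matched, so it has no length or position here. Among the genes at logCPM 0 to 2, 6 of 165 were unmatched in the same way, and 1 of 4602 at logCPM 2 and over. The 322 tRNA and 15 rRNA genes of the annotation are not among the loci of the deposited table, so none of these annotated RNA genes is a member. The gene type of EFSJAG00000000324 is not known here.

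The members were short. Their gene models had a median length of 840 bases (111 genes), against 1249 bases for the genes at logCPM 0 to 2 (159 genes) and 1842 bases for those at logCPM 2 and over (4601 genes). Models under 500 bases made up 22.5% of the members, against 15.1% of the genes at logCPM 0 to 2 and 2.98% of the remainder. Lengths among the members ran from 168 bases for SJAG_00016 to 2749 bases for SJAG_02946. The next shortest were SJAG_06617 at 199, SJAG_00387 at 213, SJAG_05255 at 222 and SJAG_02983 at 231 bases. The next longest were SJAG_01096 at 2735, SJAG_02940 at 2623, SJAG_03605 at 2582 and SJAG_02133 at 2391 bases. No member reached the upper lengths of the other classes, whose longest models were 8679 and 16518 bases.

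**Figure D2:**
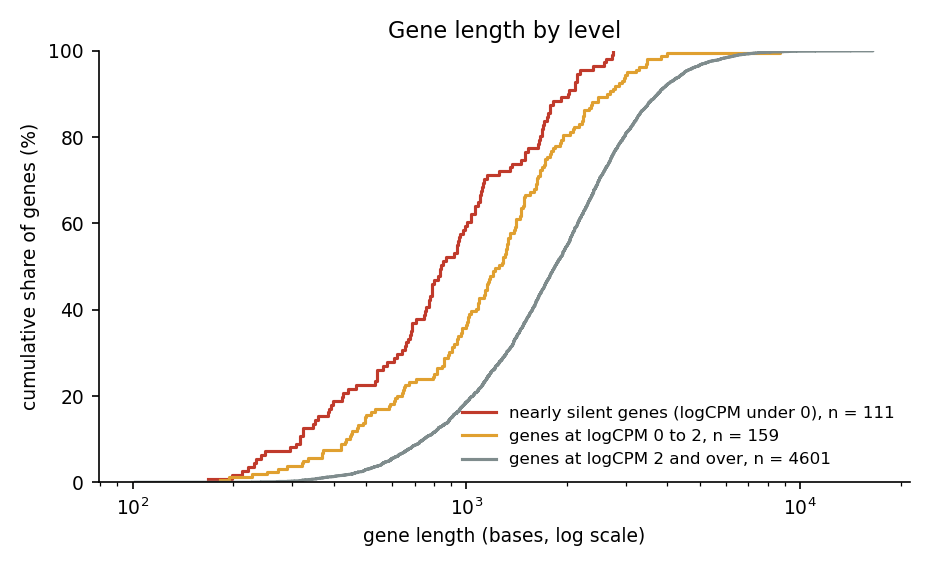
Cumulative share of genes (vertical axis, %) by gene length in bases (horizontal axis, log scale) for the nearly silent genes, the genes at logCPM 0 to 2 and the genes at logCPM 2 and over. The red curve of the nearly silent genes lies to the left of the others over nearly its whole course, with medians of 840, 1249 and 1842 bases.

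Length also varied with level inside the set. The 14 members with a length and a logCPM under −3 had a median of 405 bases, and 8 of them were under 500 bases. The median was 683.5 bases for the 18 members from −3 to −2, 927 bases for the 32 from −2 to −1, and 1112 bases for the 47 from −1 to 0. Across the 111 annotated members, Spearman's rho between logCPM and length was 0.35. Genes are not independent replicates and all points come from the same libraries. CPM is not divided by length, so a short gene collects fewer reads at the same transcript number, and part of this relation is fixed by the unit.

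Levels were therefore also expressed per kb, as the CPM above the lowest value of the table divided by the length of the gene model. This length runs from the first to the last base of the model with any introns included, and their effect on the level per kb was not tested. The members had a median of 0.334 CPM per kb, the genes at logCPM 0 to 2 one of 1.75 and the genes at logCPM 2 and over one of 36.1. The middle part of the members ran from 0.173 to 0.617 CPM per kb. The level per kb is built from the CPM that chose the members, so low values for them were largely set in advance. When all annotated genes outside the named exceptions were ranked by this level, 90 of the 111 members (81.1%) were among the 111 lowest. The other 21 members were short, with a median of 443 bases. The members that ranked highest per kb were SJAG_02983 at 2.94, SJAG_02976 at 2.65, SJAG_06618 at 2.45, SJAG_05246 at 2.32 and SJAG_06596 at 2.03 CPM per kb. These 5 models are between 231 and 426 bases long, and their levels per kb lie above the median of the genes at logCPM 0 to 2. For such genes the low CPM goes with a short model rather than with a very low level per kb. SJAG_01096, the second longest member, stood at 0.106 CPM per kb.

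**Figure D3:**
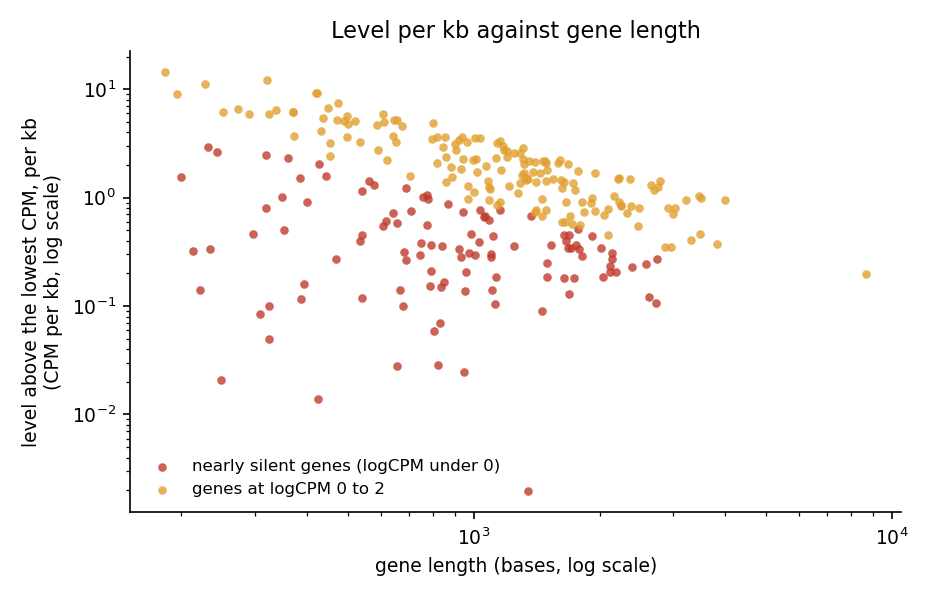
Level above the lowest CPM of the table, per kb of gene model (vertical axis, CPM per kb, log scale), against gene length in bases (horizontal axis, log scale), 1 point for each nearly silent gene (red) and each gene at logCPM 0 to 2 (orange). SJAG_00016, at 0, has no point on the log axis. The upper edge of the red points slopes down with length because the members were chosen by CPM, so only short members exceed 1 CPM per kb.

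The next annotated gene lay farther from the members than from other genes. The mean gap to the next annotated gene on either side, with an overlap counted as a negative gap, had a median of 930 bases for the members, 251 bases for the genes at logCPM 0 to 2 and 120 bases for the genes at logCPM 2 and over. The Tj loci are not among these annotated genes, so a gap can hold retrotransposon sequence. Whether the wider gaps of the members do so was not tested. Gaps and overlaps also depend on where the annotation ends each gene model, and the effect of this on the values was not tested. Overlaps with another model were correspondingly less common, at 24 of 111 members (21.6%), 71 of 159 genes at logCPM 0 to 2 (44.7%) and 57.8% of the remainder. Where models overlap, reads cannot be assigned from the table alone, because the strand setting of the counting is not given in the sources used here. How far this uncertainty affects the members' levels was not tested. Of the 24 members, 11 overlapped by at least 100 bases, 7 shared at least 50% of their own length, and 5 lay wholly within another model. These 5 were SJAG_00050, SJAG_02675, SJAG_04630, SJAG_02086 and SJAG_00149, with logCPM values from −2.01 to −0.95. RNA genes were the next gene on at least 1 side of 8 members (7.21%), against 1.89% of the genes at logCPM 0 to 2 and 2.26% of the remainder.

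A gene model whose length is a multiple of 3 can be a single coding exon with no untranslated ends. The length was a multiple of 3 for 56 of 111 members (50.5%). It was so for 50.3% of the genes at logCPM 0 to 2 and for 39.3% of the genes at logCPM 2 and over. Among members under a logCPM of −3 it was so for 11 of 14. A share near 1 in 3 would arise if lengths were unrelated to the reading frame. A multiple of 3 thus does not by itself show a model without untranslated ends. Reads over unannotated ends of a transcript are not counted for models that lack them, and how far this lowers the members' levels was not tested. Locus tags beginning SJAG_06, whose numbers break the order along the contigs, were carried by 17 members (15.3%), 8.81% of the genes at logCPM 0 to 2 and 0.956% of the remainder. Tags beginning SJAG_05 were carried by 13 members (11.7%), against 7.55% and 4.54% in the same classes.

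The members were not spread evenly over the genome. Contig names were not used here, and contigs were told apart as runs of rising gene positions, which gave 3 long contigs of 4290, 3834 and 3032 kb up to their last annotated base, and shorter ones. The long contigs hold 106 members. Of these, 14 (13.2%) lay within 50 kb of a contig end, against 4 of 155 genes at logCPM 0 to 2 (2.58%) and 56 of 4594 genes at logCPM 2 and over (1.22%). The outermost 20 kb held 1 of 106 members (0.943%), 2 of 155 genes at logCPM 0 to 2 (1.29%) and 0.414% of the remainder. At the left ends of the long contigs, where positions start, the first genes with a level begin only at bases 21100, 22922 and 36806. The 20 kb window thus holds few genes, all at right ends. It does not show how the share of members runs towards the left ends. Within 100 kb the shares were 30.2%, 7.10% and 3.29%, and within 250 kb they were 47.2%, 20.6% and 11.0%. The median distance to the nearer end was 309 kb for the members, 814 kb for the genes at logCPM 0 to 2 and 945 kb for the remainder. Positions of telomeres and centromeres were not used here, and the end of a contig is only the end of its assembled sequence or of its last gene.

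Seen from the contigs, nearly silent genes made up 18.9% of the 74 genes within 50 kb of an end, 15.0% of the 120 genes between 50 and 100 kb, and 4.59% of the 392 genes between 100 and 250 kb. Beyond 250 kb they made up 56 of 4269 genes, or 1.31%. The genes at logCPM 0 to 2 had a flatter course, at 5.41%, 5.83% and 5.36% in the first bins and between 2.38% and 3.11% farther in. Over the 586 genes within 250 kb of an end, the median logCPM was 5.79, against 6.09 for the genes farther in. This pooled value hides low medians at particular ends. Within 50 kb the median was −0.89 for the 8 genes at the left end of long contig 1. It was −0.98 for the 5 genes at the left end of long contig 3. Members, chosen by a logCPM under 0, form 6 of these 8 and 3 of these 5 genes. These negative medians therefore restate membership. Within 50 kb the median was 2.77 at the right end of long contig 1 and 5.82 at the left end of long contig 2. It was higher still at the right ends of long contigs 2 and 3. Within 100 kb it was 2.79 and 2.22 at the left and right ends of long contig 1. It was 3.20 at the left end of long contig 2 and 5.72 at the left end of long contig 3. Members are among these genes too, so the medians are not independent of their counts.

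**Figure D4:**
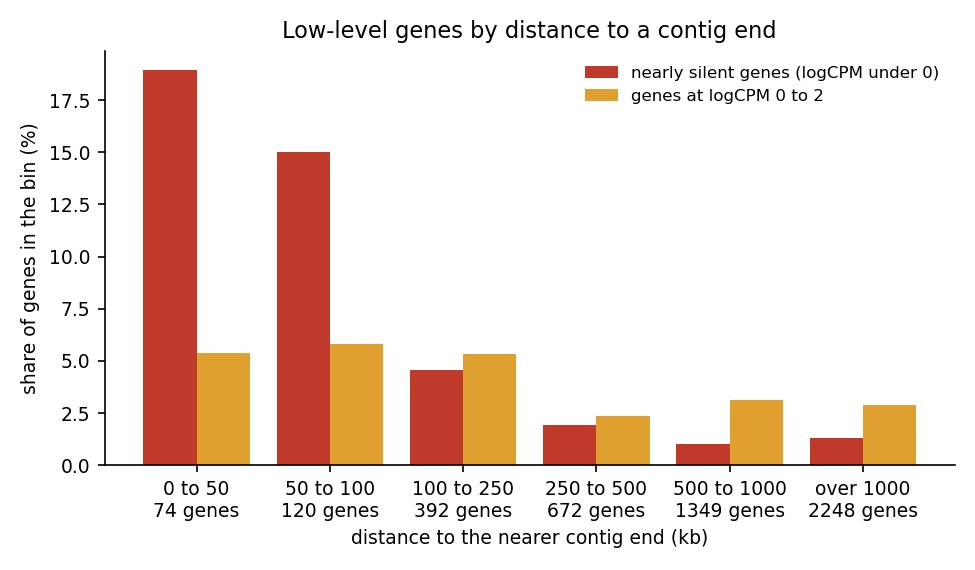
Share of genes (vertical axis, %) that were nearly silent (red) or at logCPM 0 to 2 (orange) in bins of distance to the nearer end of the 3 long contigs (horizontal axis, kb, with the number of genes in each bin). Nearly silent genes decline from 18.9% of the outermost bin to between 1.04% and 1.93% of the bins beyond 250 kb.

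The ends differed among themselves. Within 100 kb of the left end of long contig 1, 10 of 25 genes were members, and within 100 kb of its right end 8 of 21. At the left end of long contig 2 they were 6 of 19 genes, and at the left end of long contig 3 they were 6 of 30. In contrast, 0 of 49 genes at the right end of long contig 2 and 2 of 50 at the right end of long contig 3 were members. The genes SJAG_16458 (logCPM −0.33) and SJAG_03765 (logCPM −0.43) lie at the right end of long contig 2 and would have been members, but both were left out for their overlap with Tj elements. Both are therefore absent from the counts at that end by the rule. The gene numbers behind these shares are small.

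**Figure D5:**
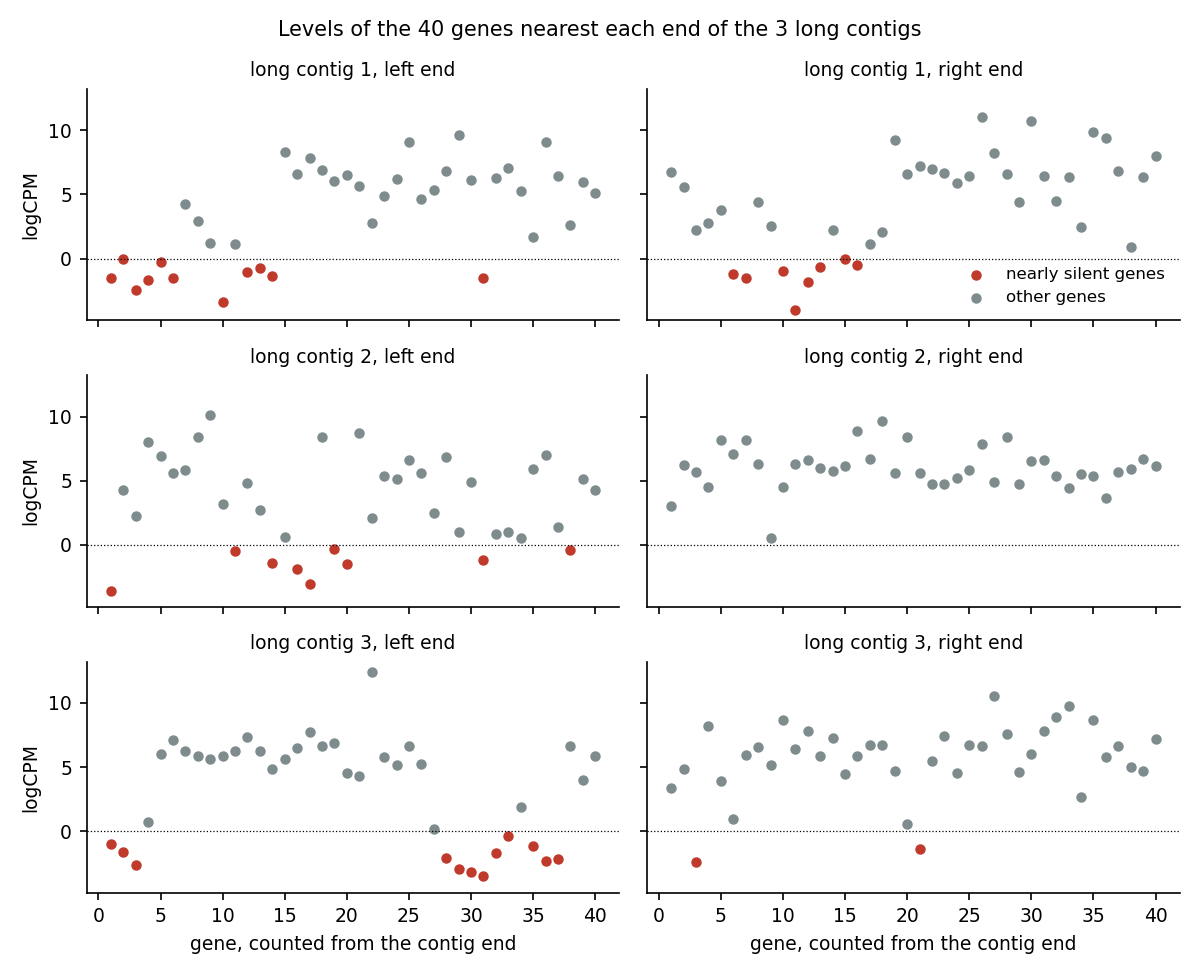
logCPM (vertical axis) of the 40 genes nearest each end of the 3 long contigs, counted inwards from the end (horizontal axis), with nearly silent genes in red, other genes in grey and a dotted line at 0. Members number 11, 9 and 12 of 40 genes at the left ends of contigs 1, 2 and 3 and 8 at the right end of contig 1. Some of these members form runs of 3 or more, except on contig 2. The right ends of contigs 2 and 3 have 0 and 2 members.

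Nearly silent genes often lay next to each other. The next annotated gene on at least 1 side was another member for 53 of the 111 annotated members (47.7%), whereas a member was next to 10.7% of the genes at logCPM 0 to 2 and 2.52% of the remainder. The mean logCPM of the adjoining genes in the table had a median of 3.35 for the members, 5.56 for the genes at logCPM 0 to 2 and 6.09 for the remainder. Members were kept among the adjoining genes, so these medians are not independent of the shares just given. There were 6 runs of 3 or more neighbouring members with 25 genes in all, 14 pairs with 28 genes, and 58 members that stood alone. All 6 of the longer runs lay within 250 kb of an end of a long contig.

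The first run opens long contig 1, from 21100 to 35614. Its 6 genes are the first annotated genes of the contig, with logCPM values of −1.50 for SJAG_01096, −0.06 for SJAG_01095, −2.47 for SJAG_01093, −1.65 for SJAG_01091, −0.27 for SJAG_02127 and −1.55 for SJAG_02126. The next gene inwards, SJAG_02125, stood at 4.25. A further run of 3 followed from 58231 to 68629, in which SJAG_02132, SJAG_02133 and SJAG_02134 had values of −1.01, −0.70 and −1.34. The block ended sharply there, since the adjoining SJAG_02135 was expressed at a logCPM of 8.33.

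At the right end of the same contig, SJAG_00023 (−0.54) and SJAG_00021 (−0.02) formed a pair. They were separated by SJAG_00020, at 2.22, from a run of 4 that extended from 4212709 to 4222198. In that run SJAG_00019 stood at −0.65, SJAG_00018 at −1.83, SJAG_00016 at −3.99 and SJAG_00015 at −0.996, so that it spans nearly the whole range of the set. The pair SJAG_00013 (−1.51) and SJAG_00012 (−1.19) lay closer to the end, and the genes outside this pair were again higher.

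The left end of long contig 3 held 3 runs. SJAG_04836 (−0.98), SJAG_04835 (−1.62) and SJAG_04834 (−2.67) were the outermost genes with a level, from 36806 to 40427. A block from 95197 to 115593 comprised a run of 6 and a run of 3 around SJAG_04799, which stood at 1.85. The run of 6 had values of −2.12 for SJAG_04807, −2.98 for SJAG_06615, −3.22 for SJAG_04805, −3.53 for SJAG_04804, −1.70 for SJAG_06616 and −0.35 for SJAG_04801. The run of 3 had −1.19 for SJAG_04798, −2.30 for SJAG_04797 and −2.19 for SJAG_04796. This block was bordered by SJAG_04808 at 0.20 on its outer side and by SJAG_05342 at 6.60 on its inner side.

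On long contig 2 no run of 3 was found. Near its left end SJAG_02943 (−1.85) and SJAG_02944 (−3.05) formed a pair, as did SJAG_02946 (−0.30) and SJAG_02947 (−1.46). SJAG_02945, the only gene between these pairs, had a logCPM of 8.43, and SJAG_02948 on their inner side one of 8.73. Nearly silent and highly expressed genes were thus direct neighbours here.

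The 50 members within 250 kb of an end of a long contig and the 56 farther in were also compared with each other as a description. The outer members had a median length of 940 bases and a median logCPM of −1.41, and the inner members 773.5 bases and −1.03. Models under 500 bases made up 7 of the 50 outer and 16 of the 56 inner members. The level per kb had a median of 0.288 in the outer and 0.421 CPM per kb in the inner members. Another member was the next gene for 70.0% of the outer members and for 28.6% of the inner ones. Members made up 8.53% of the genes within 250 kb and 1.31% of those farther in, and the shares beside a member were not set against this density. As counted, the inner members were more often short and without a member next door. Whether the outer ones were more grouped than their density gives was not tested. Within the 106 members, logCPM was only weakly related to the distance to an end (Spearman's rho 0.10).

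The 5 members on shorter contigs were SJAG_05352, SJAG_05050, SJAG_05106, SJAG_06642 and SJAG_06643, among 16 genes with a level there. Their logCPM values were −3.93, −1.94, −3.86, −3.53 and −3.88, so 4 of the 5 were under −3. SJAG_05352 and SJAG_05050 are neighbours and the last annotated genes of their contig. Reads that map to several places were split into fractions by the authors, and whether these genes share sequence with other loci was not tested.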

How the data were processed

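RNA was sequenced from 3 dcr1Δ* and 3 wild-type samples. Per the labels, the submitters' processing notes name Trim Galore 0.4.3.1, STAR 2.7.2b, featureCounts 2.0.1 and edgeR 3.34.0. The study's methods name other versions of the last 2, alignment to SJ5 and fractional counting of multiply mapped reads. In the deposited table the authors give 1 log2 CPM for each locus, averaged over all libraries. Its other 4 columns (fold change, F, p-value and FDR) are the authors' own comparison of the strains and were not used. Depth per library is therefore unknown, and no test was run.

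Members and comparisons were chosen with earlier results of these data known. Length, gene type and position came from the RefSeq annotation of SJ5, which matched 4878 of 4886 loci not named Tj. Positions count from 1. A new contig was taken to begin wherever gene positions fell back, which gave 16. The level per kb subtracts the lowest CPM. Named genes were the 5 lowest, highest, longest, shortest and highest per kb, those in runs of 3 or more, and the 3 just above 0. Members in pairs, wholly overlapped or on shorter contigs were added after their values were seen. Product names were not used here, so planned functional groupings were not made. No sequences are shown. Alternatives changed the logCPM limit, comparison band, distances, neighbours, overlap and subtraction. Python 3.11.15, numpy 2.4.6, pandas 2.3.3, scipy 1.17.1 and matplotlib 3.10.9 were used, and the position functions were tested on simulated data.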

Additional observations from a re-analysis of the deposited data

How the results depend on the processing

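Of 19 alternative values over 8 results, 13 stayed within 1.5 times a count or inside the 95% binomial interval of a share or median, and 6 moved. The interval treats genes as independent, which they are not, so it is only a yardstick. Every matched locus is protein-coding. The median length over protein-coding genes only could therefore not change, and the protein-coding share could hardly move. The 90 members also among the lowest genes per kb were ranked by the CPM that chose them. A large count there was thus set in advance. The number of nearly silent genes was 65 at a limit of −1 and 176 at a limit of 1. The share near a contig end was 0.943% within 20 kb, where only right ends hold genes with a level, and 30.2% within 100 kb. The share of members that overlap another gene was 6.31% when at least 50% of the member had to be covered. The median level per kb was 0.403 CPM per kb without the subtraction. The inclusion of shorter contigs in the share near an end, chosen after seeing the data, gave 17.1%. The share without a product name was not run, since no product names were used. No paired analysis was possible because the table holds no values per library, and for the same reason no replicate could be left out. The counts behind members are low, and 21 members had fewer than 3 reads per library on the assumed scale. How well such levels can be told from none was not tested, since no values per library are available.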

Other observations

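Ranking by level per kb brought in 21 genes that were not members, all with longer models, from 1402 to 8679 bases (median 2046 bases). The longest was SJAG_05105, on a shorter contig, with a logCPM of 0.82 and 0.197 CPM per kb, a level per kb below the median of the members. SJAG_04258, of 3827 bases on long contig 2, had a logCPM of 0.58 and 0.375 CPM per kb. Both were chosen after their values were seen.

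Of the 7 genes left out for their overlap with Tj elements, 6 were under a logCPM of 0, from −3.99 for SJAG_05161 to −0.33 for SJAG_16458, and SJAG_06639 stood at 3.76. Among the 266 Tj loci, 143 (53.8%) had an average logCPM under 0.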
